A study of Mus musculus with 12 samples.

Results

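The granzymes, perforin and serglycin are the protein cargo and packing material of the cytotoxic granules with which CD8 T cells kill. The 10 genes described here were taken by symbol from the deposited expression table: the granzyme genes Gzma, Gzmb, Gzmc, Gzmd, Gzme, Gzmf, Gzmk and Gzmm, the perforin gene Prf1 and the serglycin gene Srgn. They are 10 of 48709 genes in the table. All 10 reached 1 TPM in at least 3 of the 12 libraries, the minimum for testing, as did 12630 genes in all. Gzmc, Gzmd, Gzme and Gzmf reached that level in activated libraries and in no Naive library, Gzmd and Gzme in no 24h library and Gzmf in 1, Gzmk in no 24h or 48h library, and Gzmm in 3 of the 9 activated libraries. Their differences from the groups where they are low, 24h and 48h included, are partly set by this minimum. TPM is a level scaled by transcript length and by library total, so that levels of different genes can be set side by side.

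The cells were CD8 T cells from spleens of OT-I mice, which carry a transgenic T cell receptor for an ovalbumin peptide. The Naive group was not stimulated. The groups 24h, 48h and 72h are named for the hours since activation began with antibodies to CD3 (2 µg/ml) and to CD28 (1 µg/ml), which engage the T cell receptor complex and a costimulatory receptor, together with the growth cytokine IL-2 (10 ng/ml). Activation on plates lasted 48 h, so the 72h group had been off the plates for its last day, in conditions the design calls only normal. Each group held 3 libraries described as biological replicates. The sources used here give neither the age, sex or further strain of the mice nor whether each replicate was a separate mouse. The p-values therefore measure the spread between these libraries. The extraction notes mention transferred OT-I cells without saying which libraries are meant.

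Granzymes are serine proteases that are stored in secretory granules and released at the contact with a target cell. Perforin forms pores through which granzymes reach the target cell's cytosol, and serglycin is the proteoglycan core that holds the basic proteases in the granule. Granzyme B cuts after aspartate and can start apoptosis through caspases and Bid, whereas granzyme A cuts after basic residues and acts without caspases. Resting naive CD8 T cells of the mouse are known to hold little of these proteins, and stimulation through the T cell receptor and IL-2 is known to induce them. Natural killer (NK) cells and memory CD8 T cells hold granzymes already.

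In the reference annotation, Gzmb, Gzmc, Gzmd, Gzme and Gzmf lie on chromosome 14 in the mouse, all on the minus strand, in a cluster that also holds Gzmg, Gzmn and the neutrophil protease gene Ctsg. Gzmf, Gzmc and Gzmb are direct neighbours there, and so are Gzme and Gzmd. Gzma and Gzmk are neighbours on chromosome 13, and Gzmm, Prf1 and Srgn lie apart from each other on chromosome 10. The 200 bases before the start of 6 of these genes are shown because Gzmc, Gzmd, Gzme and Gzmf, which lie in this cluster and have closely related upstream sequences, took different courses after activation. They come from RefSeq on the GRCm38.p6 build, 5′ to 3′ on the strand of the gene. Capitals mark the letters TGTGGT or their reverse complement, a RUNX motif, and in Gzmb also 1 match to TGANTCA, an AP-1 motif.
Gzmb (chr14:56262335-56262534, minus strand): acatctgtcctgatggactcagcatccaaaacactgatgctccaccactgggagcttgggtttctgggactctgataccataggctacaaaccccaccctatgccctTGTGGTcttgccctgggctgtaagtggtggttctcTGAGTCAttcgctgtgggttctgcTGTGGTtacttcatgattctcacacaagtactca
Gzmc (chr14:56234658-56234857, minus strand): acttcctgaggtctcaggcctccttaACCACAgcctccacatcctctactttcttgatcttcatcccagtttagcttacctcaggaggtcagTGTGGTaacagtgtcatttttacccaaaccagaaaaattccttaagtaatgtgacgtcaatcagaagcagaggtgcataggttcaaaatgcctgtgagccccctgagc
Gzmd (chr14:56132594-56132793, minus strand): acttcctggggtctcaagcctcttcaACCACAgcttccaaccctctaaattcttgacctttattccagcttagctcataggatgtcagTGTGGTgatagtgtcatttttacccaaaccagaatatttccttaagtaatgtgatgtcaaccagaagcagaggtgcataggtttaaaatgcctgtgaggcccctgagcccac
Gzme (chr14:56120626-56120825, minus strand): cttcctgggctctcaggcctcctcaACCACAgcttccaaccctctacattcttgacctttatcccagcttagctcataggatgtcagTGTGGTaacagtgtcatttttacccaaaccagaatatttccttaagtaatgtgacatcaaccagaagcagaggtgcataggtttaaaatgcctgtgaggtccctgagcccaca
Gzmf (chr14:56211408-56211607, minus strand): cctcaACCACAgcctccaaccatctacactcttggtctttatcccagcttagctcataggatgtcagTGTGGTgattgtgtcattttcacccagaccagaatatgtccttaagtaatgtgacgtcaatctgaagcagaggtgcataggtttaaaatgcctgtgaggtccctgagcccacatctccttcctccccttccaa
Prf1 (chr10:61297636-61297835, plus strand): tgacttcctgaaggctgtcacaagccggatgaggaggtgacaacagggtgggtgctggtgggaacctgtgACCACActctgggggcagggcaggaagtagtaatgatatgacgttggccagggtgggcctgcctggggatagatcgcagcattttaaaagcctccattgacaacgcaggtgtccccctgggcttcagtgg

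Promoter windows of 300 bases, from 250 bases before the start to 50 after it, were searched on both strands for 4 motifs, and all 10 genes matched an entry, with 2 entries for Gzmm and for Srgn. RUNX letters were found in a window of 9 of the 10 genes, the exception being Gzmk, though in only 1 of the 2 windows of Gzmm and of Srgn. They were in 16.8% of 32851 promoters of the reference, a share counted by promoter and not by gene. Gzmb held them at −93 and −34 from its start, with the AP-1 letters between them at −58 and no overlap. Gzmc, Gzmd, Gzme and Gzmf each held a RUNX pair, with 1 match on each strand. AP-1 letters were in 7.81% of all promoters and, among the 10 genes, in Gzmb alone. T-box letters (GGTGTGA, 3.98% of all promoters) were found in Gzmk at −75 and in the second window of Gzmm at −189. FOXO letters (TGTTTAC, 3.65% of all promoters) were found in none of the 10. The windows of Gzmc, Gzmd, Gzme and Gzmf were 86.1% to 94.0% identical to each other, and that of Gzmb was 56.0% to 61.2% identical to them. The RUNX matches of Gzmc, Gzmd, Gzme and Gzmf are therefore not independent of each other. All motif matches describe the letters in the windows, and no binding was measured.

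The libraries held 14312854 to 19495722 reads each, recovered as whole reads from the TPM values, and for the 10 genes 1 read was worth 0.0704 to 0.220 TPM. The 8 CD8 T cell markers, among them Cd8a, Cd8b1 and Cd3e, were present in all 12 libraries, with summed levels of 10464 to 11527 TPM in Naive and 3747 to 5694 TPM in the activated libraries. The Naive libraries also held markers of other spleen cells, and the sums given next were lower after activation. Their 10 NK cell markers summed to 624, 338 and 234 TPM in replicates 1, 2 and 3, against 7.55 to 16.3 TPM in the 9 activated libraries. All 10 of those markers were called lower at 24h, 48h and 72h, against 21%, 20.7% and 19% of all genes. Klra4, Klra8 and Klra9 among them reached 1 TPM in Naive libraries alone, with at most 0.902, 0.573 and 0.878 TPM later. Their calls are partly set by the minimum for testing, and 10 of 10 is not a fair contrast with all genes. Tyrobp and Fcer1g, the most abundant of the 10 NK cell markers, are also expressed by myeloid cells. The 10 myeloid markers summed to 2331, 1656 and 942 TPM in Naive and to at most 24.1 TPM later, and the 6 B cell markers to 5658, 4504 and 3780.0 TPM in Naive and at most 823 TPM later. In these bulk libraries, fewer cells of a type and less RNA per cell cannot be told apart.

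Gzmb, which encodes granzyme B, was the most abundant granzyme transcript in every activated library. It stood at 74.8, 64.3 and 35.2 TPM in the 3 Naive libraries, and at 7265, 6379 and 7717 TPM at 24h. At 48h it reached 16607, 16370.4 and 16094 TPM, and at 72h it was at 6378, 6624 and 6672 TPM. Every 48h library lay above every other library, and the 24h and 72h libraries overlapped. At 48h Gzmb made up 1.64% ± 0.0257 of all TPM (SD, n = 3) and ranked between 2 and 3 among all genes of a library, against ranks of 4 to 11 at 24h and 8 to 10 at 72h. In Naive it ranked between 1771 and 3796. The Naive libraries had the same replicate order for Gzmb as for the summed NK cell, myeloid and B cell markers above, and the part of those cells in the Naive level, against which the folds below are set, was not tested.

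Gzmb rose at each time against Naive, by 6.98 on the log2 scale at 24h, 8.18 at 48h and 6.86 at 72h (limma, SE 0.19, adjusted p = 1.63e-12, 6.29e-13 and 2.53e-12). Its mean level was 123-fold, 282-fold and 113-fold that of Naive. The log2 fold change is that of TPM + 1, a call needs an adjusted p under 0.05 together with a change of at least 1 in either direction, and the 3 comparisons share the Naive libraries. Among 12630 genes it ranked 3 from the top at 24h, 2 at 48h and 3 at 72h. On the second day it rose further by 1.20 (SE 0.19, adjusted p = 2.00e-04), and in the day off the plates it fell by 1.32 (adjusted p = 1.44e-04), to a mean level 2.49-fold lower. With quantile normalization these steps were 0.59 and −0.98, and neither was called. Between 24h and 72h the difference was −0.11 with an SE of 0.19, not passing the test (adjusted p = 0.639).

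**Figure D1:**
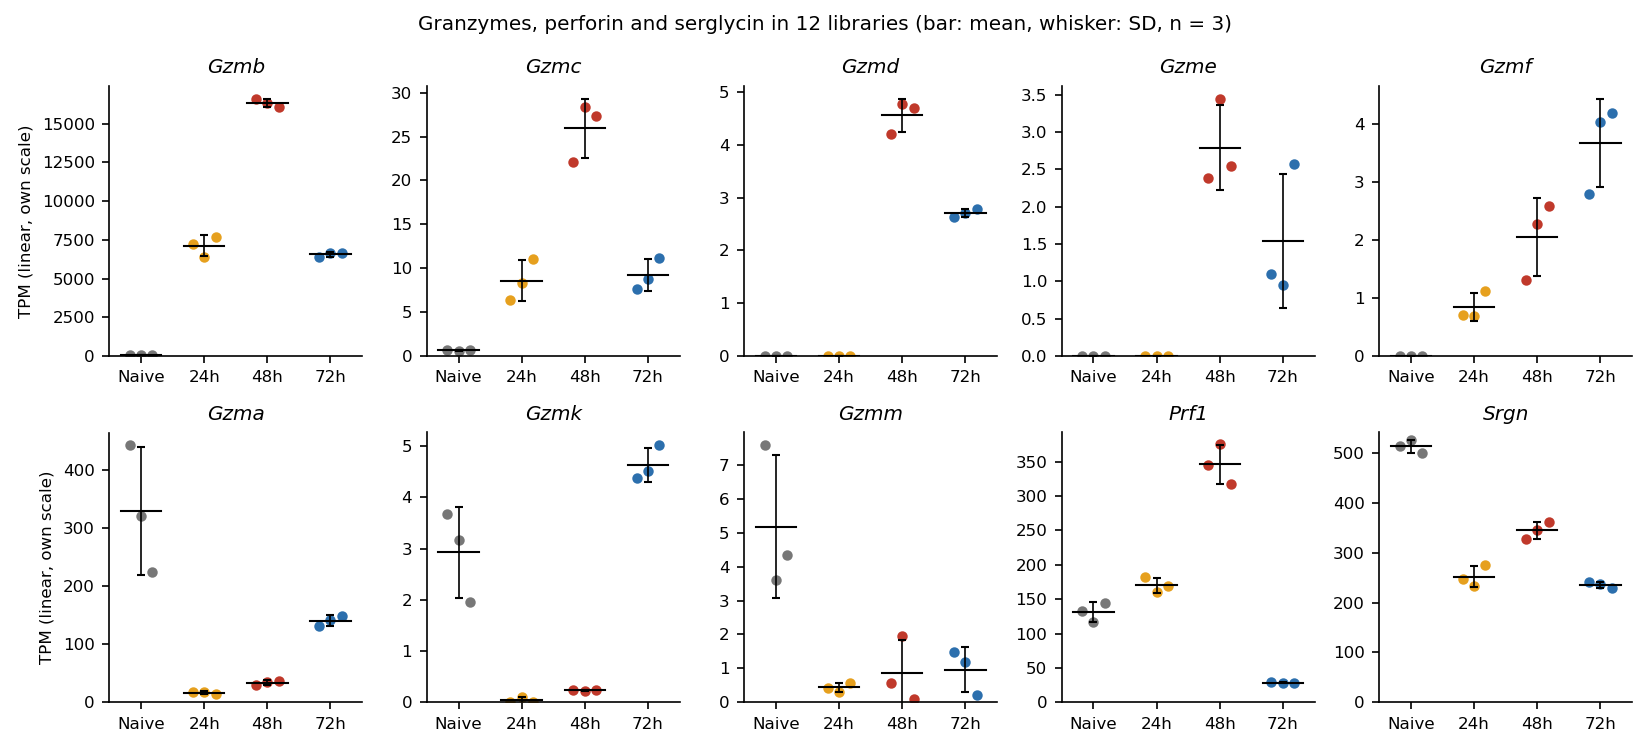
TPM of each of the 10 genes in the 12 libraries, on a linear scale of its own for each gene; points are libraries, the bar is the mean and the whisker the SD of 3 libraries. Gzmb, Gzmc, Gzmd, Gzme and Prf1 are highest at 48h, Gzmf is highest at 72h, and Gzma, Gzmm and Srgn are highest in Naive.

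The other granzymes of the cluster were far less abundant than Gzmb and differed in their courses. Their substrates in the mouse are less well known, and they are described as orphan granzymes of strongly activated killer cells. Gzmc was already present at 24h, with 6.36, 8.36 and 11.02 TPM against 0.662, 0.588 and 0.621 TPM in Naive, where 3 or 4 reads were counted in each library. It stood at 22.1, 28.4 and 27.3 TPM at 48h and at 7.59, 8.77 and 11.2 TPM at 72h. Like Gzmb, Gzmc was highest in the 48h libraries, without overlap, and its 24h and 72h libraries overlapped. It rose by 2.53, 4.04 and 2.63 against Naive (SE 0.18, adjusted p = 1.38e-08, 1.27e-10 and 1.01e-08), rose by 1.51 from 24h to 48h and fell by 1.41 from 48h to 72h.

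Gzmd and Gzme were listed at 0 in all Naive and all 24h libraries and appeared at 48h. Gzmd had 24, 29 and 27 reads at 48h, or 4.21, 4.78 and 4.70 TPM, and 15, 15 and 17 reads at 72h, or 2.63, 2.71 and 2.79 TPM. Gzme had 13, 20 and 14 reads at 48h, or 2.38, 3.44 and 2.55 TPM, and 6, 5 and 15 reads at 72h, or 1.10, 0.944 and 2.57 TPM. The 72h libraries of Gzmd all lay below its 48h libraries, while those of Gzme overlapped through 72h replicate 3. Set against 3 reads over the whole Naive group, Gzmd was at least 24.9-fold higher at 48h and 14.8-fold at 72h, and Gzme at least 14.5-fold and 8.02-fold. Both rose at 48h and at 72h against Naive and against 24h in limma, with fitted values of 2.47 and 1.89 for Gzmd and 1.91 and 1.29 for Gzme that depend on the pseudocount of 1. Both passed the minimum through their 48h and 72h libraries alone, so these calls against Naive and 24h are partly set by it. From 48h to 72h Gzmd differed by −0.58 (adjusted p = 0.00187) and Gzme by −0.62 (adjusted p = 0.03), under the fold minimum. Of the stretches of 75 bases in their transcripts, 5.73% for Gzmd and 4.75% for Gzme also occur in another gene, so their counts are uncertain.

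Gzmf followed a different course, with its highest level at 72h. It was listed at 0 in Naive, and had 4, 4 and 6 reads at 24h, 7, 13 and 14 at 48h and 15, 21 and 24 at 72h. These correspond to 0.708, 0.689 and 1.12 TPM, then 1.31, 2.28 and 2.59 TPM, and then 2.80, 4.04 and 4.19 TPM. No library of a later time overlapped an earlier one, yet the single steps of 0.72 and 0.62 lay under the fold minimum (adjusted p = 0.00646 and 0.0179). Against Naive the fitted log2 fold change was 0.87 at 24h, under the fold minimum, 1.59 at 48h and 2.21 at 72h (SE 0.19), and Gzmf rose by 1.34 from 24h to 72h. The levels were at least 10.5-fold and 18.8-fold that of 3 reads over the Naive group at 48h and 72h. Gzmf was also called at 24h with a pseudocount of 0.1 (3.20) and with a voom fit on recovered reads (3.05). Of its neighbours that were not among the 10 genes, Gzmg had 4, 1 and 3 reads at 48h and 4, 0 and 5 at 72h, none earlier, and Gzmn was listed at 0 in all 12 libraries.

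**Figure D2:**
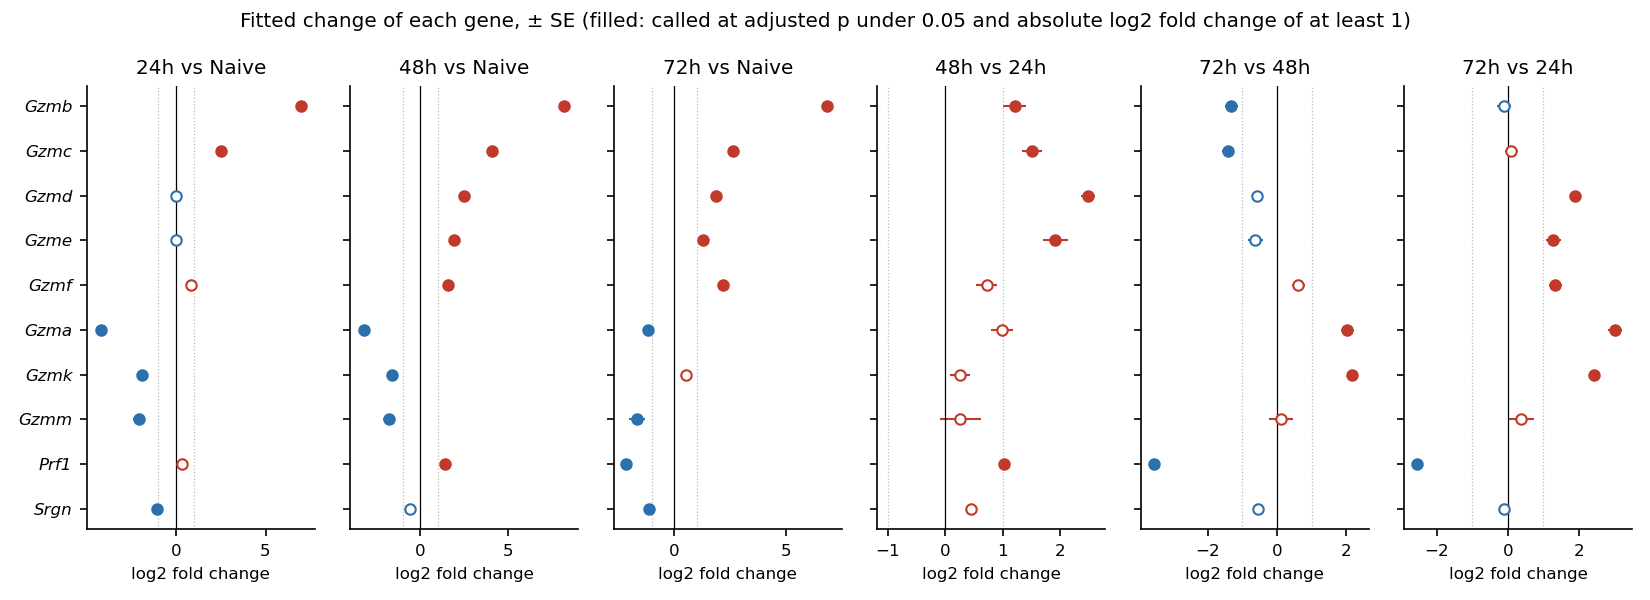
Fitted log2 fold change of TPM + 1 for each of the 10 genes (rows) in 6 comparisons (panels, each with its own scale), with SE as whiskers; filled points were called, open points were not, and dotted lines mark the fold minimum. From 48h to 72h Gzma and Gzmk lie to the right of 0 at 2.04 and 2.18, while Prf1, Gzmb and Gzmc lie to the left.

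Gzma, which encodes granzyme A, went the opposite way from Gzmb on the first day and rose again off the plates. It stood at 442, 321 and 223 TPM in the Naive libraries, and at 18.1, 17.6 and 14.02 TPM at 24h. It was at 29.3, 34.2 and 37.5 TPM at 48h and at 131, 142 and 149 TPM at 72h. The groups did not overlap at any step, and their order was Naive, 72h, 48h and 24h. Gzma fell by 4.18 at 24h, by 3.20 at 48h and by 1.17 at 72h against Naive (SE 0.19, adjusted p = 1.69e-10, 2.81e-09 and 6.93e-05), and the mean at 24h was 19.8-fold lower. Without Naive replicate 1 the value at 72h was −0.93, under the fold minimum. Between the activated groups, which do not involve the Naive libraries, Gzma differed by 0.98 from 24h to 48h (adjusted p = 8.03e-04), just under the fold minimum. It rose by 2.04 from 48h to 72h (adjusted p = 3.41e-06), where its mean was 4.18-fold higher and its change ranked 37 from the top of 12630 genes. The step from 24h to 48h was called with median-of-ratios scaling (1.02), and also when 24h replicate 1 (1.04), 24h replicate 2 (1.03) or 48h replicate 1 (1.07) was left out.

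The Naive level of Gzma had the same replicate order as several marker sums of other cells. The gamma-delta and innate-like T cell markers summed to 63.1, 79.8 and 71.5 TPM in Naive replicates 1, 2 and 3, in another order. In the 3 Naive libraries Gzma had the same order as the summed NK cell markers, with replicate 1 highest and replicate 3 lowest, and so did the myeloid and B cell markers. The 9 markers of antigen-experienced CD8 T cells, among them Ccl5, Klrd1 and Ly6c2, summed to 1479, 1348 and 1083 TPM in Naive, again in that order. This list holds Eomes and Il2rb, which return in lists further on. It also holds the killer lectin-like receptor genes Klrd1, Klrk1, Klrc1 and Klrc2, a family with other members on the NK cell list. Their means in Naive and at 72h were 186 and 122 TPM (Klrd1), 36.9 and 210 (Klrk1), 27.2 and 23.1 (Klrc1), and 3.99 and 2.00 (Klrc2). The NK cell sum thus leaves out part of this family. The 9 markers summed to 767 to 780.2 TPM at 24h, 1222 to 1270.0 TPM at 48h and 1534 to 1613 TPM at 72h. Most of this was Il2rb, with means of 525, 1017 and 982 TPM. Without Il2rb the other 8 summed to 821 to 1243 TPM in Naive, 244 to 255 at 24h, 217 to 239 at 48h and 573 to 611 at 72h, so they were lowest at 48h, whereas Gzma was lowest at 24h. The NK cell markers stayed between 7.55 and 16.3 TPM after activation. Of those 9 markers, 5 were called higher and 1 lower from 48h to 72h, against 2.81% and 3.22% of all genes. Higher were Cxcr3 at 3.30, Ly6c2 at 2.15, Klrk1 at 1.82, Klrd1 at 1.67 and Ccl5, and lower was Eomes at −1.10. At 72h the NK cell marker sum of 7.58 to 9.48 TPM stood beside 131 to 149 TPM of Gzma. The part of such cells in the Naive level and in the fall of Gzma was not tested.

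**Figure D3:**
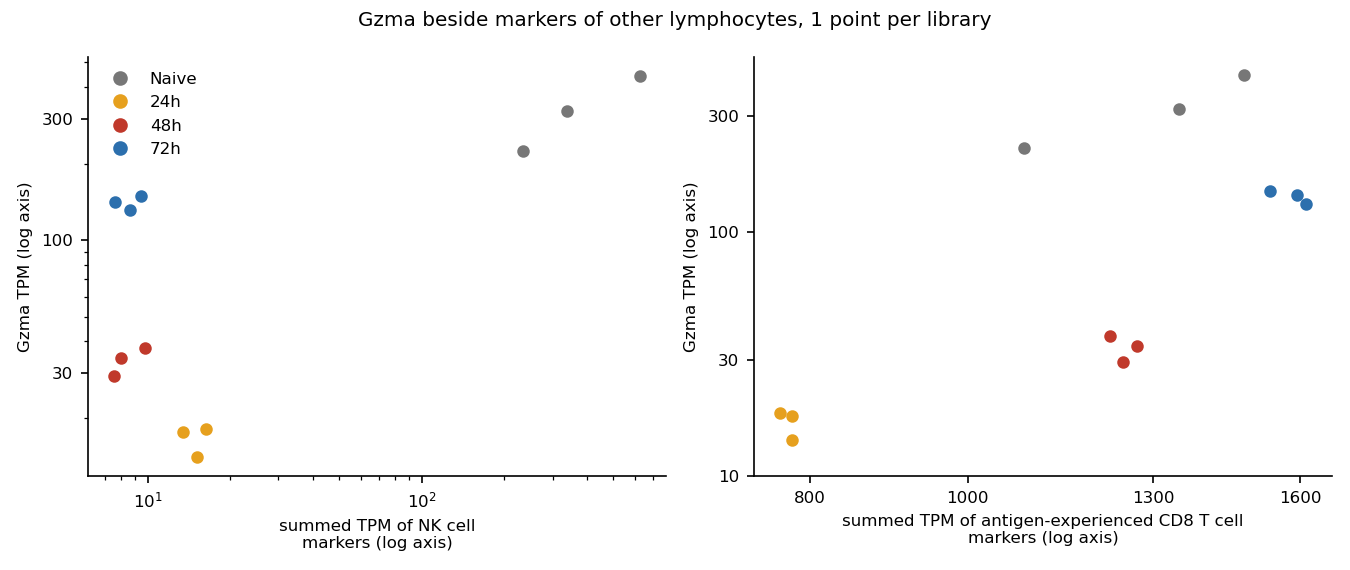
Gzma TPM (vertical, log axis) in each library against the summed TPM of 10 NK cell markers (left) and of 9 antigen-experienced CD8 T cell markers (right), both on log axes; each point is 1 library, coloured by group. The Naive points are ordered alike on both axes, and the 72h points lie near 140.6 TPM of Gzma at the same NK marker sums as the 48h points.

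Gzmk, the neighbour of Gzma and like it a protease that cuts after basic residues, also fell on the first day and rose off the plates, at a far lower level. Its Naive libraries held 33, 24 and 14 reads (3.67, 3.16 and 1.95 TPM). This is the replicate order of Gzma and of the NK cell, myeloid and B cell marker sums above. At 24h it had 0, 1 and 0 reads and at 48h 2 reads in each library, or 0.243, 0.229 and 0.242 TPM. At 72h it had 36, 36 and 44 reads, or 4.38, 4.52 and 5.01 TPM, and every 72h library lay above every Naive library. Gzmk fell by 1.90 at 24h and by 1.64 at 48h against Naive (SE 0.17, adjusted p = 1.56e-07 and 7.17e-07), and at 72h it differed from Naive by 0.55 (adjusted p = 0.00823), under the fold minimum. It rose by 2.18 from 48h to 72h (adjusted p = 6.17e-07), which ranked 24 from the top of 12630 genes, and by 2.44 from 24h to 72h.

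Gzmm, which encodes granzyme M, a protease known mostly from NK cells, fell and stayed low. It stood at 7.56, 3.61 and 4.33 TPM in Naive, at 0.436, 0.318 and 0.573 TPM at 24h, at 0.574, 1.94 and 0.114 TPM at 48h and at 1.49, 1.18 and 0.215 TPM at 72h. All activated libraries lay below all Naive libraries, and the 3 activated groups overlapped. Gzmm fell by 2.05, 1.78 and 1.66 against Naive (SE 0.35, adjusted p = 1.15e-04, 3.71e-04 and 6.61e-04), and its differences between activated groups, of 0.12 to 0.38, did not pass. Replicate 1 was the highest Naive library for Gzmm as for the NK cell markers, while replicates 2 and 3 were in the opposite order. The part of those cells in this fall was not tested.

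Prf1, which encodes perforin, peaked with Gzmb at 48h and then fell below its Naive level. It stood at 133, 117 and 145 TPM in Naive, at 182, 159.7 and 169 TPM at 24h, at 346, 375 and 318 TPM at 48h and at 29.3, 27.7 and 28.1 TPM at 72h. No group overlapped another, and the order was 48h, 24h, Naive and 72h. The 24h level exceeded Naive by 0.37 (SE 0.08, adjusted p = 9.52e-04), under the fold minimum, and this difference was −0.02 with quantile normalization. Prf1 rose by 1.39 at 48h against Naive (adjusted p = 3.01e-09) and by 1.02 from 24h to 48h. Leaving out 24h replicate 2 (0.98) or 48h replicate 2 (0.96) took that step under the fold minimum. From 48h to 72h it fell by 3.56 (SE 0.08, adjusted p = 3.08e-11), to a mean 12.2-fold lower, and this ranked 12 from the bottom of 12630 genes. At 72h Prf1 was 4.63-fold lower than in Naive (log2 fold change −2.17, adjusted p = 4.13e-11). Among its Naive libraries replicate 3 was the highest, the replicate with the lowest NK cell marker sum, and the part of those cells in the Naive level was not tested.

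Srgn, which encodes serglycin, was the steadiest of the abundant members. It stood at 513, 526 and 500.2 TPM in Naive, at 248, 233 and 275 TPM at 24h, at 327, 346 and 361 TPM at 48h and at 242, 236 and 229.5 TPM at 72h. Every activated library lay below every Naive library, and the 24h and 72h libraries overlapped. Srgn fell by 1.03 at 24h and by 1.12 at 72h against Naive (SE 0.06, adjusted p = 3.49e-09 and 1.67e-09), and differed by −0.57 at 48h, under the fold minimum. Without 24h replicate 2 the value at 24h was −0.97. The steps of 0.45 on the second day and −0.54 off the plates also lay under the fold minimum (adjusted p = 5.76e-05 and 1.86e-05). Serglycin is also made by myeloid cells and platelets. The myeloid marker sums given above and those of 6 erythroid and platelet markers, 1524 to 2127 TPM in Naive and at most 17.0 TPM later, fell with Srgn, and the part of those cells was not tested.

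Counted together, the 10 genes moved in both directions at every time against Naive. At 24h 2 rose (Gzmb and Gzmc) and 4 fell (Gzma, Gzmk, Gzmm and Srgn), where 25.7% of the 12630 genes rose and 21% fell. At 48h 6 rose and 3 fell, against 24.7% and 20.7% of all genes, and at 72h 5 rose and 4 fell, against 24.5% and 19%. The 6 that rose at 48h were Gzmb, Gzmc, Gzmd, Gzme, Gzmf and Prf1, and at 72h Prf1 was among the 4 that fell. Calls against Naive were thus frequent in the whole transcriptome, and those of Gzmc, Gzmd, Gzme, Gzmf, Gzmk and Gzmm are partly set by the minimum for testing. With a pseudocount of 5, the called changes of Gzmd, Gzme, Gzmf, Gzmk and Gzmm all lay under the fold minimum. The median over all genes was 0.15, 0.15 and 0.21 at the 3 times and −0.08, −0.05 and −0.04 with median-of-ratios scaling, a shift that kept every call of the 10 genes against Naive. The share of higher calls among all genes went with it from 55% to 43.6% at 24h, from 54.4% to 45.2% at 48h and from 56.3% to 43.4% at 72h.

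Between activated groups far fewer genes were called. From 24h to 48h 5 rose (Gzmb, Gzmc, Gzmd, Gzme and Prf1), where 4.95% of all genes rose. None of the 10 fell in limma, where 3.07% of all genes did, none was lower at an unadjusted p under 0.05, and none fell in the voom fit. Gzmd and Gzme were at 0 at 24h, and Gzmk, Gzmm and Gzmf had means of 0.0375, 0.442 and 0.838 TPM. On the log2(TPM + 1) scale these genes could not fall by the fold minimum, so this result rests on the others. From 48h to 72h 2 rose (Gzma and Gzmk) and 3 fell (Gzmb, Gzmc and Prf1), against 2.81% and 3.22% of all genes. From 24h to 72h 5 rose (Gzma, Gzmk, Gzmd, Gzme and Gzmf) and 1 fell (Prf1), against 6.93% and 6.2%. Of these calls, those of Gzmd and Gzme against 24h, of Gzmf from 24h to 72h and of Gzmk at 72h are partly set by the minimum for testing, and those of Gzma, Gzmb, Gzmc and Prf1 are not. The genes had been picked with results of these data known, so these counts are a description.

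The make-up of the granzyme transcripts in these bulk libraries differed between Naive and 24h. Summed over 10 granzyme genes, the 8 above with Gzmg and Gzmn, they came to 396 ± 132 TPM in Naive, 7146 ± 680.2 at 24h, 16428 ± 249.9 at 48h and 6722 ± 169 at 72h (mean ± SD, n = 3). In Naive, Gzma held 83.2% ± 1.26 of this sum and Gzmb 14.6% ± 1.61. At 24h Gzmb held 99.6% ± 0.0433 and Gzma 0.235% ± 0.0483, and at 48h Gzmb again held 99.6% and Gzma 0.205%. At 72h the share of Gzma was 2.09% ± 0.0796, with all 3 libraries above every 24h and 48h library, and that of Gzmb 97.6%. Gzmc, the next cluster gene by level, held between 0.0872% and 0.173% of the sum in the activated libraries. The Naive libraries also held markers of NK and other cells, and the part of those cells in the Naive shares was not tested.

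Granzyme B and perforin transcripts, which act together in killing, were out of step after the plates. The ratio of Gzmb to Prf1 TPM was 0.564, 0.55 and 0.243 in Naive, 40.0, 39.9 and 45.8 at 24h and 48.0, 43.7 and 50.6 at 48h. At 72h it was 218, 239 and 237, above every other library. The ratio of Gzmb to Srgn, protease per unit of packing proteoglycan transcript, was 29.3, 27.4 and 28.0 at 24h and 50.8, 47.3 and 44.5 at 48h. It returned to 26.4, 28.0 and 29.1 at 72h, overlapping 24h, from 0.146, 0.122 and 0.0703 in Naive. These ratios are descriptions of transcript levels per length, with no test.

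**Figure D4:**
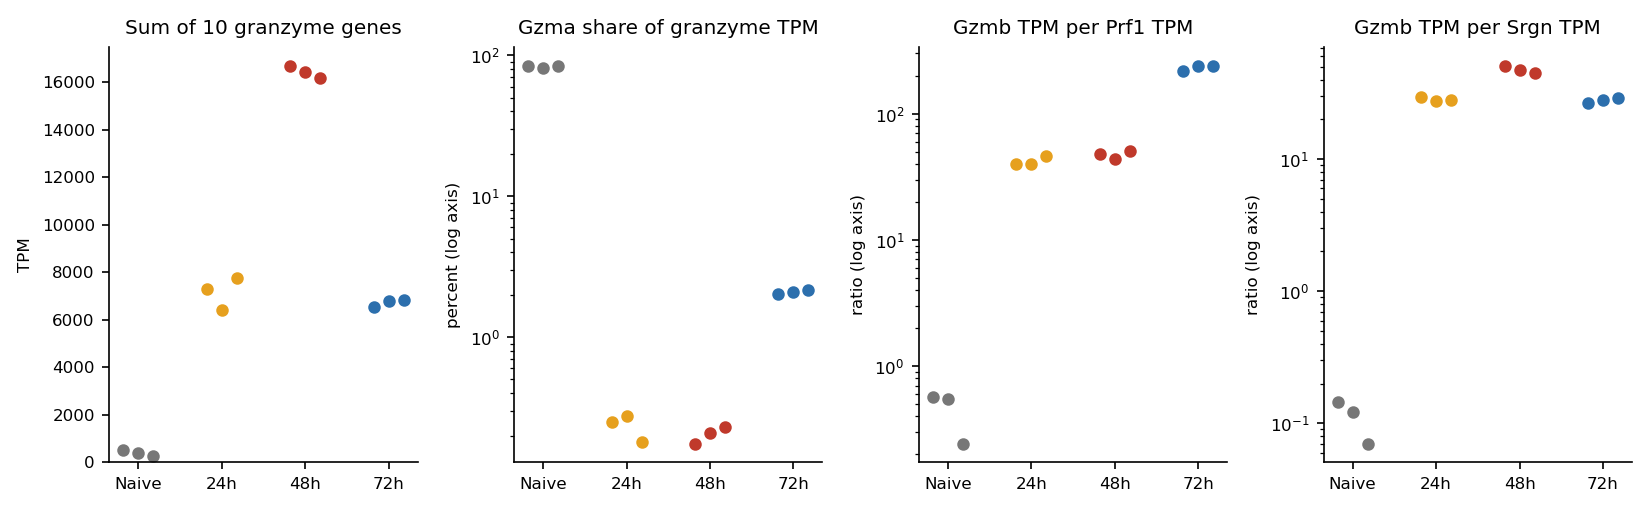
From left to right, summed TPM of 10 granzyme genes (linear axis), percent of that sum held by Gzma, Gzmb TPM per Prf1 TPM and Gzmb TPM per Srgn TPM (log axes), with 1 point per library. The Gzma share drops from over 81.7% in Naive to under 0.275% at 24h and 48h, and the ratio of Gzmb to Prf1 at 72h, 218 to 239, stands above all other libraries. The part of NK and other cells in the Naive values was not tested.

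Of 9 tested genes that load and store granzymes, 3 rose and 1 fell at 24h, where 25.7% of all genes rose and 21% fell. At 48h 2 rose and 1 fell (24.7% and 20.7% of all genes) and at 72h 3 rose and 1 fell (24.5% and 19%). Their median changes were 0.75, 0.30 and −0.09, beside 0.15, 0.15 and 0.21 over all genes. Cst7, which encodes the granule cystatin F, stood at 91.0 ± 10.2 TPM in Naive, 185 ± 9.04 at 24h, 125 ± 9.02 at 48h and 216 ± 6.45 at 72h, and rose at 24h and 72h (1.02 and 1.24). Gnptab and Igf2r, an enzyme and a receptor of the mannose 6-phosphate route by which granzymes reach granules, rose at all 3 times, Gnptab by 1.47, 1.53 and 2.17 and Igf2r by 1.13, 1.22 and 1.17. Ctsh, a cathepsin that can activate progranzyme B in the mouse, fell from 24.5 ± 10.2 to 0.482 ± 0.0733 TPM at 72h (−4.03), beside the fall of the myeloid markers, and their part in it was not tested. Ctsc, the main activating protease of granzymes, stood at 79.9 TPM in Naive and 50.1 to 58.1 TPM later and was not called (−0.52, −0.45 and −0.66). Nkg7, a granule membrane protein, was not called against Naive either (−0.57, 0.26 and −0.62) and had its highest mean at 48h, at 943 ± 23.2 TPM. The remaining 3, Calr, Lamp1 and M6pr, were not called and lay between −0.68 and 0.83 against Naive.

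Of the 18 tested genes of granule biogenesis, transport and release, 2 rose and 3 fell at 24h against Naive, where 25.7% of all genes rose and 21% fell. At 48h 2 rose and 2 fell (24.7% and 20.7% of all genes) and at 72h 1 rose and 1 fell (24.5% and 19%), with medians of −0.35, 0.06 and 0.04 at the 3 times. Rab27a, whose protein docks granules at the membrane, rose by 1.09 at 24h and 1.07 at 48h and stood at 0.63 at 72h. Stx11, a syntaxin needed for granule fusion, went from 21.1 ± 3.58 TPM to 62.5 ± 6.48, 101 ± 0.823 and 53.7 ± 3.13 TPM, with its highest level at 48h like Prf1 and Gzmb, and rose at each time (1.53, 2.22 and 1.32). Vamp2, a vesicle protein of granule fusion in mouse killer cells, fell by 2.68, 2.20 and 1.95. Unc13d (−0.88, −0.32 and −0.54), Stxbp2 (−0.66, −0.29 and −0.24), Lyst (−0.39, −0.50 and −0.39) and Ap3b1 (0.55, 0.89 and 0.63), whose human counterparts are mutated in inherited disorders of killing, were not called. Sytl1, a synaptotagmin-like protein, fell by 1.05 at 24h and rose by 1.11 from 24h to 48h, a step at which Stx7, a syntaxin, rose by 1.12. Sytl2, a Rab27a effector, fell by 1.64 and 1.72 at 24h and 48h and rose by 1.32 from 48h to 72h, the step at which Gzma and Gzmk rose.

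Of 3 tested genes listed as granzyme inhibitors, 2 rose at all times against Naive (25.7%, 24.7% and 24.5% of all genes). These 2 fell from 48h to 72h (3.22%), as Gzmb did. Serpinb9, the intracellular inhibitor of granzyme B, stood at 13.96 ± 3.84 TPM in Naive, 371 ± 13.97 at 24h, 395 ± 11.04 at 48h and 64.4 ± 2.82 at 72h. It rose by 4.67, 4.76 and 2.16 against Naive and fell by 2.60 from 48h to 72h. Serpinb6b, a relative, rose by 3.24, 4.68 and 2.42 and fell by 2.27 from 48h to 72h, from 836 ± 31.7 to 173 ± 2.30 TPM. The third gene tested on this list, Serpinb6a, was not called against Naive (−0.83, 0.22 and 0.70) and rose by 1.05 from 24h to 48h. Of the cluster's other proteases, Cma1, Mcpt8 and Ctsg reached the minimum, with means of 8.03, 6.84 and 2.39 TPM in Naive. Cma1 ranged there from 3.24 to 13.8 TPM. All 3 fell at 48h and 72h (20.7% and 19% of all genes). Cma1 and Ctsg reached 1 TPM in Naive libraries alone (at most 0.888 and 0.623 TPM later), and Mcpt8 in no 48h or 72h library. These calls are therefore partly set by the minimum for testing. The 9 mast cell and basophil markers summed to 24.7 to 35.6 TPM in Naive and 5.94 to 15.6 TPM later, Mcpt8 is on both lists, and Mcpt4 was at 0 in every library. Kit, on that marker list, went the other way, with 5.63 TPM in Naive and 12.9 and 11.8 TPM at 48h and 72h (1.07, called, and 0.95), and without it the other 8 summed to 19.1 to 29.6 TPM in Naive, 4.30 to 6.58 at 24h and 0.693 to 3.19 at 48h and 72h. The part of those cells was not tested.

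Of 5 death ligands and effector cytokines, 4 rose and 1 fell at 24h against Naive, where 25.7% of all genes rose and 21% fell. At 48h 4 rose and 0 fell (24.7% and 20.7% of all genes), and at 72h 2 rose and 0 fell (24.5% and 19%). Lta, which encodes lymphotoxin alpha, moved in the same directions as Gzmb: it stood at 11.03 ± 1.23 TPM in Naive, 409 ± 3.34 at 24h, 951 ± 60.4 at 48h and 307 ± 29.7 at 72h. Lta rose by 5.10, 6.31 and 4.68 against Naive and by 1.21 from 24h to 48h, and fell by 1.63 from 48h to 72h. Tnf rose by 1.23 and 1.12 at 24h and 48h and stood at 0.76 at 72h, with no step between activated groups called. Fasl, the ligand of the death receptor Fas, fell by 1.54 at 24h and then rose by 2.22 to 48h, from 5.41 ± 0.626 to 28.9 ± 1.23 TPM, and differed by −0.14 from 48h to 72h. Tnfsf10, which encodes the death ligand TRAIL, rose by 1.55, 1.76 and 1.74 against Naive. Ifng, the effector cytokine, rose by 5.84 and 8.08 at 24h and 48h and fell by 7.84 from 48h to 72h, from 5871 ± 186 to 24.7 ± 3.79 TPM, the step at which Prf1 fell by 3.56. The receptor chains Il2ra and Il2rb rose at all 3 times, and Il2rg was not called (−0.19, −0.76 and −0.59). From 48h to 72h, when Prf1 and Gzmb fell, Il2ra differed by 0.18 and Il2rb by −0.05, and Il2rb stood at 982 ± 20.4 TPM at 72h.

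Of 18 regulators known to act on cytotoxic genes, 5 rose and 5 fell at 24h, where 25.7% of all genes rose and 21% fell. At 48h 7 rose and 3 fell (24.7% and 20.7% of all genes) and at 72h 6 rose and 4 fell (24.5% and 19%), with medians of 0.12, 0.57 and 0.32. Klf2, a transcription factor of resting T cells, stood at 4452 ± 349.6 TPM in the Naive group and fell by 9.21 at 24h, where 6.52 ± 0.662 TPM were left, and rose by 1.76 from 48h to 72h, reaching 23.9 ± 1.43 TPM. Tcf7 and Foxo1, also known from resting T cells, fell at all 3 times, Tcf7 by 2.46, 2.99 and 2.58 and Foxo1 by 1.38, 1.21 and 1.03. Irf4 and Rbpj rose at all 3 times, Irf4 by 2.82, 3.15 and 2.72 and Rbpj by 3.11, 4.10 and 3.65. Stat5a, which acts downstream of IL-2, rose by 1.82 and 2.06 at 24h and 48h and fell by 1.71 from 48h to 72h, while Id2 fell by 1.51 at 24h and rose by 1.43 to 48h. Bach2 fell by 1.13 from 24h to 48h and was lower than Naive at 72h (−1.02). Tbx21, which encodes T-bet, stood at 17.8 ± 3.39 TPM in Naive and 159 ± 4.56, 63.6 ± 5.45 and 127 ± 4.45 TPM at the 3 times, and rose at each (3.10, 1.79 and 2.78). Its lowest activated level was thus at 48h, when Gzmb and Prf1 were highest. Eomes, the related T-box factor, went from 26.0 ± 3.86 TPM to 99.1 ± 3.79 at 24h, 52.8 ± 3.18 at 48h and 24.1 ± 1.98 at 72h, and fell by 1.10 from 48h to 72h. Prdm1, which encodes Blimp-1, fell by 1.03 at 24h and rose by 1.42 to 48h and by 1.92 to 72h, from 1.23 ± 0.106 to 21.6 ± 1.71 TPM over these steps. Runx3, a driver of the CD8 killer programme, was not called in any of the 6 comparisons (−0.71, −0.21 and −0.15 against Naive). Nfil3 and Bhlhe40 were not called at 24h (0.11 and 0.12) and rose at 48h, by 2.27 and 2.23, the time at which Gzmd and Gzme were first seen.

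**Figure D5:**
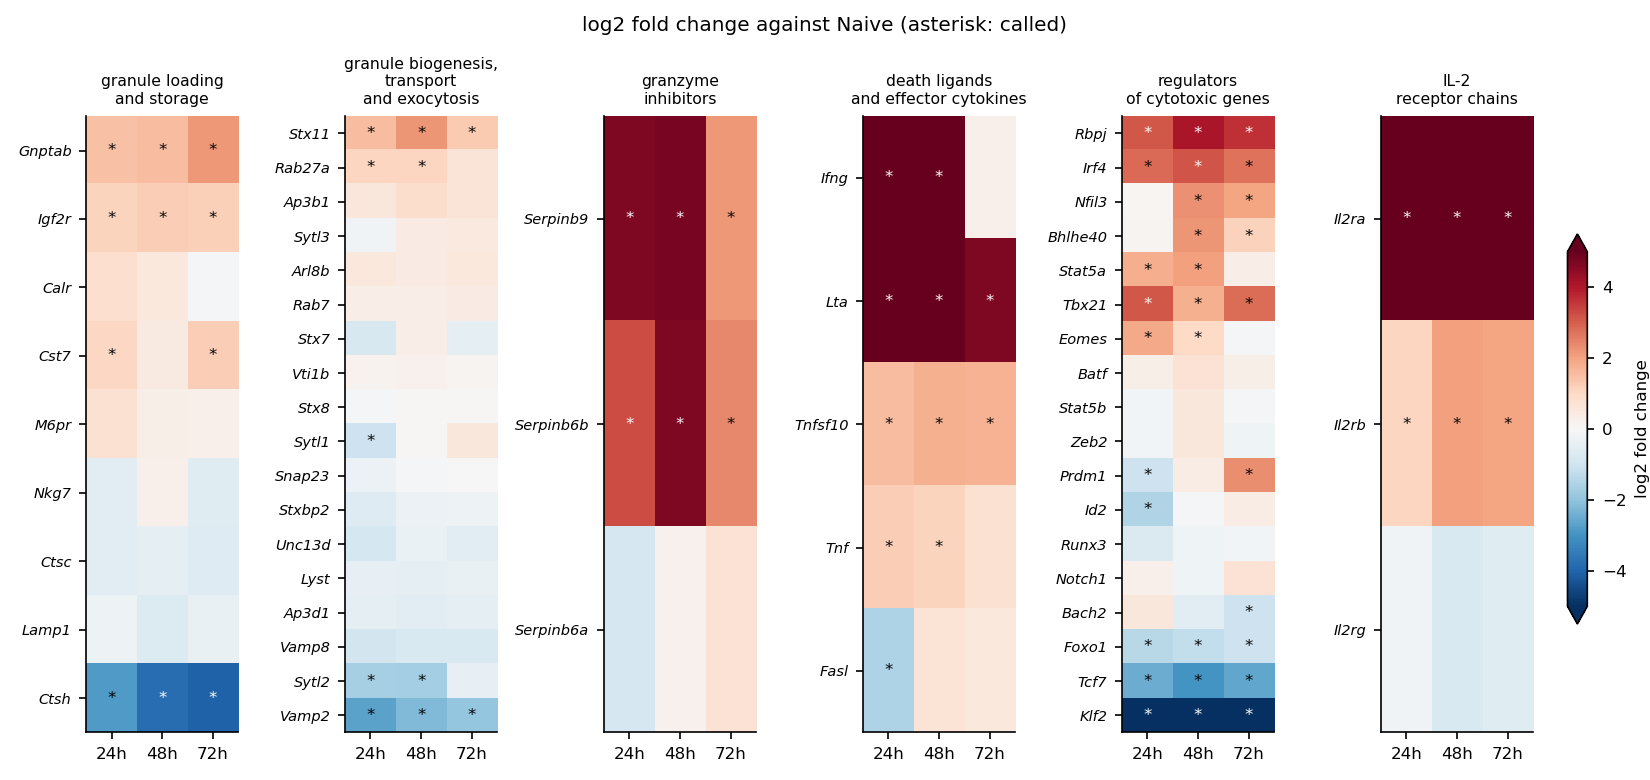
Fitted log2 fold change against Naive at 24h, 48h and 72h (columns) for the tested genes of 6 lists (panels), coloured from blue (lower) to red (higher) with the scale ending at 5 in either direction; an asterisk marks a call. The inhibitors Serpinb9 and Serpinb6b are red at all times, most genes of granule transport are pale, and Ifng is pale at 72h, at 0.24.

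Genes whose level followed each of the 10 most closely were sought among the tested genes, by the smallest root mean square difference between centred log2(TPM + 1) profiles over the 12 libraries. Nearest to Gzmb were Zbtb32 (0.48), a transcription factor, the costimulatory receptor gene Tnfrsf9 (0.48) and Nrn1 (0.55). Nearest to Gzmc were Tnfrsf18 (0.26), Gls2 and Cetn4, and to Gzmd Nfil3 (0.18), Gas2l3 and Adam8. For Gzme they were Pafah1b3 (0.29), Bhlhe40 and Ggta1, and for Gzmf Zfp958 (0.20), Hmgn5 and 4930503L19Rik. Nearest to Prf1 were the nuclear receptor genes Nr4a3 (0.53) and Nr4a2 (0.63) and Gch1 (0.65). On the second day the mean of Nr4a3 went from 230.0 to 181.2 TPM and that of Nr4a2 from 71.9 to 49.6 TPM, while Prf1 rose. Gch1 went from 18.9 to 37.0 TPM. The difference depends on how far a gene moves, so its size does not rank the 10 genes by how closely they were followed. For Gzma they were Smpdl3a (0.34), Trp53inp1 (0.43) and Entpd1 (0.51), and for Gzmk Rab19 (0.19), Ly6c2 (0.26) and Myo1f. For Gzmm they were Klf11 (0.38), H2-DMa and Slc43a2, and among those nearest to Srgn were Ppp2r5b (0.09) and Tuba1a. Among the 10 genes themselves the smallest difference was between Gzmd and Gzme (0.35), both low genes, which also share transcript sequence.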

How the data were processed

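TPM values, which sum to 1000000 in each library, were deposited by the authors in 1 table of 12 libraries. Per the submitters' processing notes, the tools were FastQC 0.11.9, cutadapt 2.9, STAR 2.7.7a, edgeR 3.36.0, and the build GRCm39. How reads were counted, and how strand and shared reads were handled, is not given in the sources used here. Values were taken as log2(TPM + 1), which understates the change of low genes. Genes that reached 1 TPM in 3 or more libraries were fitted with limma 3.58.1 in R 4.3.3 (4 group means, empirical Bayes moderation, intensity trend), with 2-sided p-values adjusted by Benjamini-Hochberg over 12630 genes in each of 6 comparisons. The fit was tested on simulated data.

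Whole reads were recovered from the TPM steps for 19181 of 19181 genes above 0 (100%, tolerance 0.001 reads), and served for depth, floors of 3 reads and a limma voom fit. Floors cover counting error only. All 10 genes are named in every comparison. Listed genes could be named if called with at least 5 TPM in 1 group, or with their values; which of them to name was chosen with the values seen, and the rest are in the counts. The 3 genes most like each of the 10 needed a group mean of at least 10 TPM; 1 of these is not reported here. The genes, 7 lists and 9 marker lists were chosen with earlier results of these data known. Figures used Python 3.11.15 and matplotlib 3.10.9. Promoters and gene order came from RefSeq tables of GRCm38.p6, and shared stretches of 75 bases from GENCODE M21 transcripts. Alternatives changed the pseudocount, filter, scaling, fold minimum, trend, groups fitted, replicate block and libraries. The voom fit, and another that left out all Naive libraries, were added after seeing the data.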

Additional observations from a re-analysis of the deposited data

How the results depend on the processing

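Counts of the 10 genes called were within 1.5 times of those reported under median-of-ratios scaling, quantile normalization, no filter, no intensity trend, fits on 2 groups, the voom fit and the fit without the Naive libraries. With a pseudocount of 5, and with a filter of 5 TPM that left 5 of the 10 genes, 2 were lower at 24h, 3 higher and 1 lower at 48h, and 2 higher at 72h against Naive. Under these same settings 3 were higher from 24h to 48h, 1 higher from 48h to 72h and 1 higher from 24h to 72h. Among all 12630 genes, the calls with a pseudocount of 5 were 1641 at 24h, 2255 and 1636 at 48h, and 2205 at 72h. Between activated groups they were 298, 147 and 409. With the filter of 5 TPM they were 1925, 2811, 1887 and 2827 of 10216 genes, and then 481, 300 and 706. A pseudocount of 0.1 gave 8 higher from 24h to 48h, where 915 of 12630 genes were. Without a fold minimum 4 were higher at 24h against Naive, 8 higher from 24h to 48h and 6 lower from 48h to 72h. Of the 12630 genes, 5796, 2786 and 2402 were called so. Leaving out 1 library at a time gave 3 to 4 lower at 24h, 3 to 4 lower at 72h and 4 to 6 higher from 24h to 48h, and moved no other count. These were 2 higher at 24h, 6 higher and 3 lower at 48h, 5 higher at 72h, 0 lower from 24h to 48h, 2 higher and 3 lower from 48h to 72h, and 5 higher and 1 lower from 24h to 72h.

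Of the values not called, Prf1 at 24h was −0.022 with quantile normalization. Leaving out 1 library at a time, Gzmm ranged from −0.12 (without 48h replicate 2) to 0.58 (without 48h replicate 3) between 24h and 48h, and from −0.20 (without 48h replicate 3) to 0.50 (without 48h replicate 2) between 48h and 72h, with −0.086 without 72h replicate 1. Gzmc between 24h and 72h ranged from −0.074 (without 24h replicate 1) to 0.28 (without 24h replicate 3), with −0.035 without 72h replicate 3. The cause of these changes was not tested. In 18 same-numbered pairs of libraries the correlation of deviations from the group means was −0.052 to 0.089. With 3 libraries a group, such values cannot show whether same-numbered libraries shared a mouse or a preparation. With a replicate block no count changed (2 higher and 4 lower at 24h against Naive). Gzmd, Gzme, Gzmf, Gzmk and Gzmm rest on few reads in most groups, and depth limits their values.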
